A study of Mus musculus with 10 samples.

Results

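Transcripts of 9 mouse genes whose human counterparts lie at Alzheimer's disease risk loci and act in endocytosis or cell adhesion were followed in microglia that differed in the number of intact Trem2 copies. The genes were taken by name: Bin1, Picalm, Cd2ap, Sorl1, Rin3, Abi3, Ptk2b, Cass4 and Fermt2. No rule on their values was used, but earlier results of these data were known when they were chosen. All 9 were found among the 24060 gene names of each library, and all 9 were among the 13621 genes tested. None of the 9 passed the test between Trem2 genotypes, the values of the genotypes overlapped for each of them, and their order by level was the same in 9 of 10 libraries.

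Endocytosis begins when a clathrin coat bends a patch of plasma membrane inwards, and the vesicle that is cut off fuses with an early endosome, from which cargo is recycled, sent back to the Golgi or passed on to lysosomes. Adhesion through integrins uses cytoplasmic adaptors and kinases that connect the receptors to actin filaments. Microglia use both in surveying brain tissue and in taking up debris. Among the endocytic members, Picalm encodes a clathrin assembly protein that binds membrane lipids, and Bin1 a BAR-domain protein that curves membranes. Cd2ap encodes an SH3 adaptor between endocytic membranes and actin, Rin3 an exchange factor for the early endosomal GTPase Rab5, and Sorl1 a sorting receptor that works with retromer. Among the actin and adhesion members, Abi3 encodes a subunit of the WAVE complex, which starts branched actin filaments. Ptk2b encodes the focal adhesion family kinase Pyk2, Cass4 a scaffold of the Cas family, and Fermt2 kindlin-2, which activates integrins. Trem2 encodes a receptor of myeloid cells that binds lipids and lipoproteins.

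The groups were 3 Trem2-/- (KO) libraries with 0 intact copies, 3 Trem2+/- (Het) libraries with 1 copy, and 4 Trem2+/+ (WT) libraries with 2 copies, all from C57BL/6 mice aged 3 to 5 months. The KO libraries were 2 male (9, 12) and 1 female (6), the Het libraries 1 male (8) and 2 female (5, 11), and the WT libraries 2 male (4, 7) and 2 female (1, 10). Cells were collected on CD11b magnetic beads, and CD11b is an integrin subunit that monocytes, neutrophils and border macrophages also carry. The sources used here give neither the design of the deleted allele nor whether a library is 1 mouse or a pool. The p-values therefore cover only the spread from library to library. Levels are RPKM, reads per kilobase of gene and per megaread, which allow genes to be compared with each other.

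Trem2, which checks the genotype labels, stood at 28.3, 21.4 and 23.9 RPKM in KO libraries 6, 9 and 12, at 104.8, 85.2 and 91.7 RPKM in Het libraries 5, 8 and 11, and at 170.1, 184.5, 237 and 174 RPKM in WT libraries 1, 4, 7 and 10. The 3 genotypes did not overlap. The difference was -2.93 on the log2 scale in KO against WT (limma adjusted p = 5.45e-06), -1.91 in KO against Het (limma adjusted p = 0.00127) and -1.02 in Het against WT (limma adjusted p = 0.238). All 9 microglial markers used (among them P2ry12, Tmem119 and Cx3cr1) were present, with a summed level of 7089 to 7655 RPKM in KO, 6441 to 7538 RPKM in Het and 6601 to 7422 RPKM in WT libraries. KO library 6 stood apart in the neutrophil and monocyte marker sums. Its 8 border macrophage markers summed to 97.0 RPKM, within the 86.8 to 179 RPKM of the other 9 libraries. Its 11 neutrophil markers summed to 2291 RPKM, against 368 and 379 RPKM in the other KO, 143 to 354 RPKM in Het and 103 to 222 RPKM in WT libraries. Its 10 monocyte markers summed to 147 RPKM, against 43.7 to 55.7 RPKM in the other 9 libraries. Chil3 alone gave 76.6 RPKM of this, against 2.19 to 10.4 RPKM in the other 9. Ccr2, at 7.49 RPKM, lay inside the 6.40 to 12.2 RPKM of the others. The remaining genes of the list were highest in library 6. Depth fell into a deeper class of 37.09 to 45.03 M reads (M, megareads) (KO 9 and 12, Het 11, WT 10) and a shallower class of 17.61 to 22.5 M reads (KO 6, Het 5 and 8, WT 1, 4 and 7).

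Promoter windows of RefSeq (build GRCm38.p6), each 300 bases with 250 before the gene start, were matched for 6 of the 9 members in 8 windows. Their GC content was 44% to 78%, against a median of 52.7% over 32851 windows, and they held 6 to 44 CpG pairs, against a median of 7. Of 3 motifs searched on both strands, none of which contains another, the ETS site GAGGAAGT of the PU.1 type (3.2% of all windows) and the AP-1 site TGACTCA (5.2%) were in no member window. The palindromic E-box CACGTG, present in 7.15% of all windows, was found in those of Picalm and Sorl1, the most and the least abundant member. The 250 bases before the start are shown for these because they hold the only motif match among the members, with the E-box in capitals. It begins 191 bases before the start in Picalm (chr7:90129963-90130212, plus strand) and 19 bases before it in the window at the outermost start of Sorl1 (chr9:42124298-42124547, minus strand). A match is a description of the letters and not a measured binding site.
Picalm: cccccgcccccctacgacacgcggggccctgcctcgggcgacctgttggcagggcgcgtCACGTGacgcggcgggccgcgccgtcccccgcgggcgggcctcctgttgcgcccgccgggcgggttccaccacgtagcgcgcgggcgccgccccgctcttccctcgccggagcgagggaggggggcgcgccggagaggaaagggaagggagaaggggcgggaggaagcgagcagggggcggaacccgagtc
Sorl1: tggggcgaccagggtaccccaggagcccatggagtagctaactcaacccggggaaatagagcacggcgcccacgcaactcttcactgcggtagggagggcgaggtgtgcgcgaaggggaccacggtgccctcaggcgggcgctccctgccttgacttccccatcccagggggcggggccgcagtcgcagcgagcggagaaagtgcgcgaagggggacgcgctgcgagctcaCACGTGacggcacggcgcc

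The 9 members spanned a wide range of levels, and their order hardly varied between libraries. Picalm was the most abundant at a mean of 348 RPKM over the 10 libraries, above 99.3% of the genes tested. Bin1 followed at 135 RPKM, Abi3 at 111 RPKM and Cd2ap at 73.3 RPKM, each above more than 95.5% of the genes tested. Rin3 averaged 29.8 RPKM, Ptk2b 23.8 RPKM, Cass4 13.9 RPKM and Fermt2 9.71 RPKM. Sorl1 was lowest at 6.46 RPKM, above 51.1% of the genes tested. Each neighbour in this order kept its place in all 10 libraries, except that Bin1 was above Abi3 in 9 of 10 and below it in WT library 4. The ranges over libraries overlapped for Bin1 with Abi3, Rin3 with Ptk2b, Cass4 with Fermt2, and Fermt2 with Sorl1, and for no other neighbours. The spread over all 10 libraries, as a coefficient of variation, had a median of 12.2% over the members, against 17.9% over all genes tested, a description that depends on level as well. It was lowest for Picalm at 6.21% and highest for Fermt2 at 21.3%.

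**Figure D1:**
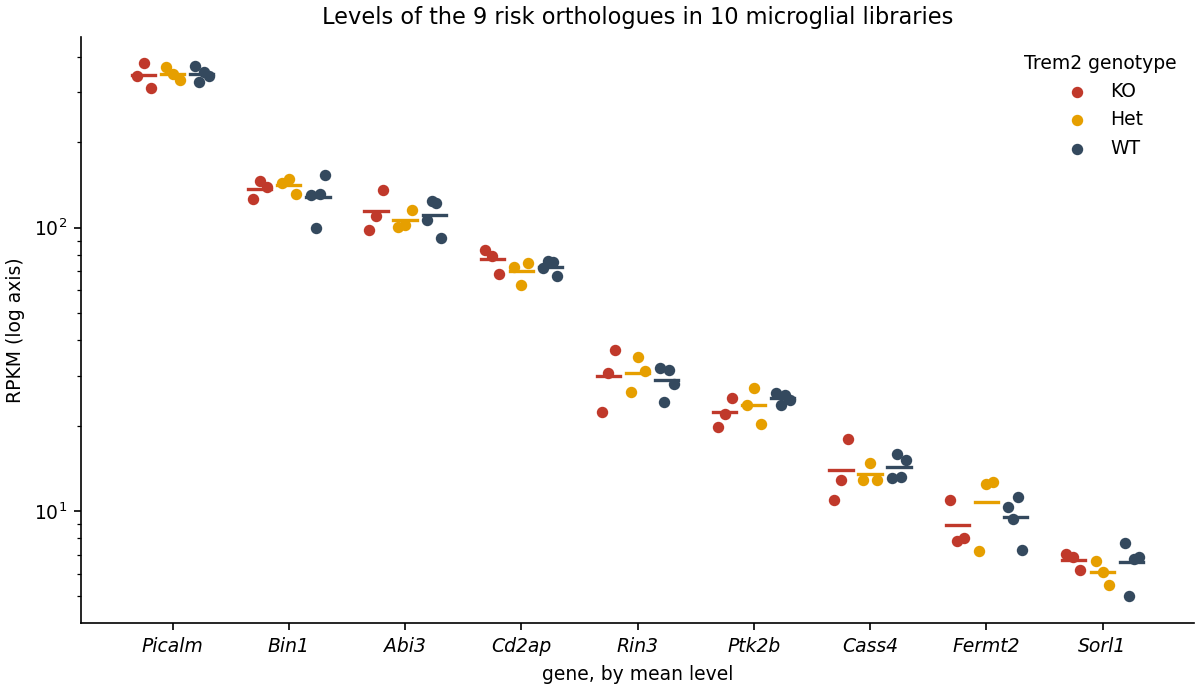
RPKM of each of the 9 genes by library, with KO, Het and WT from left to right and bars for the group means. For every gene the points of the 3 genotypes overlap, and KO library 6 is the lowest of 10 for Rin3, Ptk2b and Cass4.

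On the GRCm38 build the members are spread over several chromosomes. Bin1 lies on chromosome 18, Picalm on chromosome 7, Sorl1 on chromosome 9, Rin3 on chromosome 12, Abi3 on chromosome 11 and Cass4 on chromosome 2. Ptk2b and Fermt2 are both on chromosome 14, on the minus strand. Cd2ap lies on chromosome 17 at 42792951 to 42876665, minus strand, 5.47 Mb from Trem2, and is the only member on the chromosome that carries the targeted gene.

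The comparison of KO with WT asks what microglia without any intact Trem2 copy do with these transcripts. At an adjusted p under 0.05, 0 of the 9 members were called by limma, where 0.00734% of all genes tested were (1 gene, Trem2). At an unadjusted p under 0.05 the count was 0 of 9, against 5.13% of all genes. Limma-voom on recovered reads also called 0 of 9, where it called 2 of all 13621 genes. In 0 of 9 members did the KO and WT values stay apart, against 4.59% of all genes. The fitted differences ran from -0.19 to 0.12 on the log2(RPKM + 0.5) scale, with a median of 0.002 beside 0.03 for all genes. Of the members 5 were above 0 and 4 below, where 57.2% of all genes were above 0. The median size of the difference was 0.093 over the members and 0.122 over all genes, a description that depends on level as well. It was 0.065 beside 0.111 in Het against WT. In KO against Het it was 0.122 beside 0.117, and in male against female 0.139 beside 0.109. These are bulk samples, in which fewer cells of a type and less RNA per cell cannot be told apart.

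Picalm, the clathrin assembly gene, had 344, 380.0 and 310.5 RPKM in KO libraries 6, 9 and 12, against 371, 327, 354 and 343 RPKM in WT libraries 1, 4, 7 and 10. The highest and the lowest of the 10 values were both in KO libraries. Its difference was -0.02 on the log2 scale, and the 95% interval of the change in level reached from -15.2% to 15.3% in KO, the narrowest of the 9 on the log2 scale. Bin1, the membrane-curving gene, had 126, 146 and 139 RPKM in KO libraries, against 129.8, 99.4, 131 and 154 RPKM in WT libraries. All 3 KO values lay inside the WT range, and the difference of 0.12 had an interval from -11.9% to 33.1% in KO (limma adjusted p between 0.979 and 0.999 for all 9 members).

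Cd2ap, the adaptor between endocytosis and actin, had 83.7, 79.3 and 68.4 RPKM in KO libraries, against 71.7, 76.1, 75.5 and 67.4 RPKM in WT libraries. Of the 3 KO values 2 were above every WT value and 1 was near the WT low, for a log2 difference of 0.09 with an interval from -8.62% to 24.5% in KO. Sorl1, the sorting receptor, had 7.02, 6.85 and 6.18 RPKM in KO libraries, against 7.71, 4.99, 6.75 and 6.85 RPKM in WT libraries. The 3 KO values lay within the WT range, and the interval ran from -17.0% to 31.0% in KO. Rin3, the Rab5 exchange factor, had 22.3, 30.7 and 37.1 RPKM in KO libraries, against 31.8, 24.2, 31.3 and 28.1 RPKM in WT libraries. Here the lowest and the highest of all 10 values were in KO libraries 6 and 12, and the interval ran from -21.4% to 27.5% in KO.

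Among the actin and adhesion members, Abi3 of the WAVE complex had 98.0, 109.9 and 135 RPKM in KO libraries, against 106.6, 124.4, 121.8 and 91.9 RPKM in WT libraries. The groups overlapped over most of their range and the log2 difference was 0.004. Ptk2b, the Pyk2 kinase gene, had 19.8, 21.9 and 25.1 RPKM in KO libraries, against 26.2, 23.6, 25.6 and 24.5 RPKM in WT libraries. With 2 KO values below every WT value and 1 inside the WT range, its log2 difference of -0.19 (SE 0.11) was the largest of the 9 (limma adjusted p = 0.979), with an interval from -26.2% to 4.03% in KO. Cass4, the Cas-family scaffold, had 10.9, 12.8 and 17.9 RPKM in KO libraries, against 13.1, 15.9, 13.2 and 15.1 RPKM in WT libraries. The KO values lay on both sides of the WT range, with a log2 difference of -0.1. Fermt2, the integrin activator, had 10.9, 7.84 and 7.99 RPKM in KO libraries, against 10.3, 9.33, 11.2 and 7.24 RPKM in WT libraries. All KO values fell inside the WT range, and its interval was the widest, from -33.3% to 29.8% in KO.

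KO library 6, with the high neutrophil and monocyte sums, was the lowest of 10 for Rin3, Ptk2b and Cass4 and the highest for Cd2ap. KO library 12 was the highest for Rin3, Abi3 and Cass4 and the lowest for Picalm. Without KO library 6 the KO against WT difference of Cass4 was 0.034 in place of -0.1, that of Rin3 0.21 in place of 0.002, and that of Fermt2 -0.38 in place of -0.1, and 0 of 9 members were called. Library 6 was also the only female and the only shallower KO library. The part of other cells, sex or depth in the library 6 values was not tested. Every library had some members above and some below their WT mean.

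**Figure D2:**
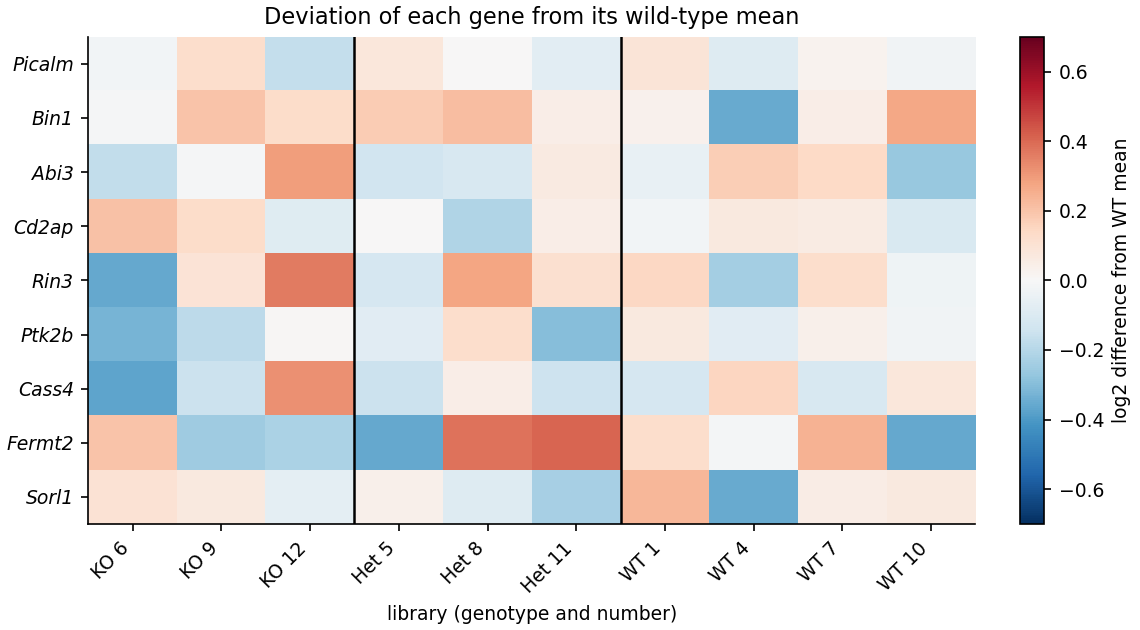
Log2 ratio of each library's RPKM to the WT mean for the 9 genes (rows), with KO libraries on the left, Het in the middle and WT on the right. KO library 6 has negative values for Rin3, Ptk2b and Cass4 and a positive one for Cd2ap, and KO library 12 has its largest positive values at Rin3, Abi3 and Cass4.

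The comparison of Het with WT asks about loss of 1 Trem2 copy. By limma, 0 of 9 members were called, where 0.0% of all genes tested were (0 genes). At an unadjusted p under 0.05 the counts were 0 of 9 members and 2.74% of all genes. Limma-voom called 0 of 9 members and 1 of all 13621 genes, and 0 of 9 members were without overlap, against 4.53% of all genes. The fitted log2 differences ran from -0.12 to 0.16, with a median of -0.027 beside 0.001 for all genes, and every adjusted p was 1.0. Of the members 3 were above 0 and 6 below, where 50.3% of all genes were above 0.

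Bin1 had 144, 148 and 131 RPKM in Het libraries 5, 8 and 11, against 129.8, 99.4, 131 and 154 RPKM in WT libraries. All Het values were within the WT range, and the log2 difference of 0.14 had an interval from -10.3% to 35.4% in Het. Picalm averaged 349.5 ± 18.9 RPKM in Het (SD, n = 3) and 349.1 ± 18.5 RPKM in WT libraries (SD, n = 4), with an interval from -14.4% to 16.3% in Het. Sorl1 had 6.67, 6.07 and 5.45 RPKM in Het libraries, against 7.71, 4.99, 6.75 and 6.85 RPKM in WT libraries. These values too were inside the WT range, set by WT library 4 at its low end. Cd2ap averaged 70.1 ± 6.53 RPKM in Het and 72.7 ± 4.0 RPKM in WT libraries, and Rin3 averaged 30.8 ± 4.27 RPKM in Het and 28.8 ± 3.5 RPKM in WT libraries.

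Of the actin and adhesion members, Fermt2 differed most between Het libraries, with 7.24, 12.4 and 12.6 RPKM in libraries 5, 8 and 11, against 10.3, 9.33, 11.2 and 7.24 RPKM in WT libraries. Het libraries thus held both the lowest and the highest of the 10 Fermt2 values. The log2 difference of 0.16 had an interval from -20.1% to 55.3% in Het, the widest of the 9. Without Het library 8 the difference was 0.0064, and without Het library 5 it was 0.39. Het library 11, highest for Fermt2, also had the highest summed level of 9 pericyte and mural markers, 128 RPKM, against 49.6 to 98.8 RPKM in the other 9 libraries, and of 10 astrocyte markers, 76.2 RPKM, against 41.3 to 61.6 RPKM. WT library 10, at 7.24 RPKM of Fermt2, held the next highest of both sums, 98.8 and 61.6 RPKM. The choroid plexus sum was highest in Het library 8 (1773 RPKM) and Het library 11 (1406 RPKM). Het library 5, lowest for Fermt2, came next at 1092 RPKM. The endothelial sum was lowest in WT library 10 (171 RPKM) and Het library 5 (174 RPKM). The part of other cells in the Fermt2 values was not tested. Ptk2b averaged 23.7 ± 3.51 RPKM in Het and 24.96 ± 1.13 RPKM in WT libraries, Abi3 106.0 ± 8.19 RPKM in Het and 111 ± 15.1 RPKM in WT libraries, and Cass4 13.5 ± 1.11 RPKM in Het and 14.3 ± 1.4 RPKM in WT libraries.

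Between KO and Het, limma called 0 of 9 members, where 0.00734% of all genes tested were called (1 gene, Trem2). At an unadjusted p under 0.05 the counts were 0 of 9 members and 3.35% of all genes. Limma-voom called 0 of 9 members and 1 of all 13621 genes, and 0 of 9 members were without overlap, against 7.42% of all genes. Fermt2 had the largest fitted difference at -0.26, averaging 8.90 ± 1.71 RPKM in KO and 10.8 ± 3.04 RPKM in Het libraries (SD, n = 3 each), with an interval from -42.0% to 20.2% in KO. Without KO library 6 that difference was -0.57 and without Het library 8 it was -0.092, and limma-voom gave -0.40; 0 of 9 members were called in each. Cd2ap had the smallest p, with 83.7, 79.3 and 68.4 RPKM in KO libraries, against 72.6, 62.7 and 75.04 RPKM in Het libraries. The groups overlapped through KO library 12, and the log2 difference was 0.16 (limma adjusted p = 0.999). Sorl1 averaged 6.68 ± 0.442 RPKM in KO and 6.07 ± 0.611 RPKM in Het libraries, a log2 difference of 0.18 that was within the spread. The KO against WT and Het against WT comparisons share the 4 WT libraries, and the 2 comparisons that use Het share those 3, so their values are not independent.

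**Figure D3:**
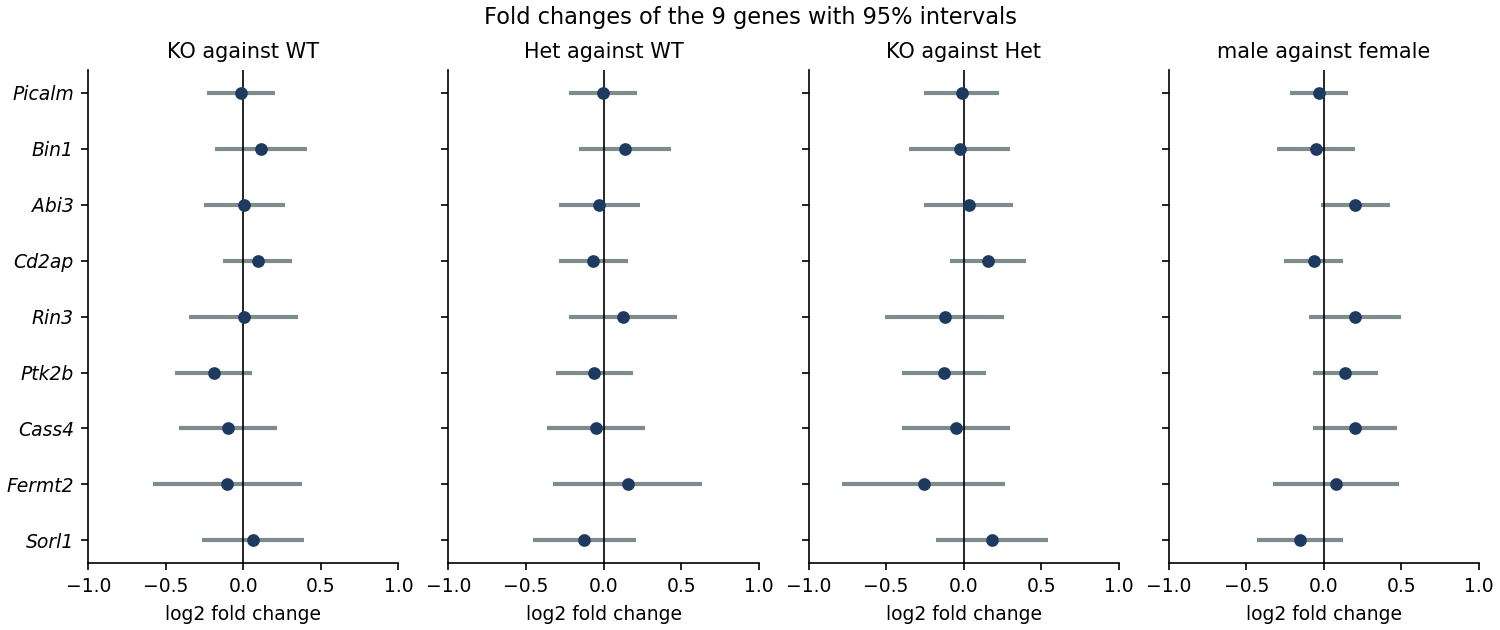
Fitted difference of each gene on the log2(RPKM + 0.5) scale (points) with its 95% interval (bars) for KO against WT, Het against WT, KO against Het and male against female. Every interval includes 0, and those of Picalm are the narrowest and those of Fermt2 the widest in each genotype comparison.

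Sex was the other label that varied. In male against female libraries, limma called 0 of 9 members, where 0.044% of all genes tested were called (6 genes). At an unadjusted p under 0.05 the counts were 0 of 9 members and 5.33% of all genes. Limma-voom called 0 of 9 members and 6 of all 13621 genes, and 0 of 9 members were without overlap, against 0.903% of all genes. Abi3 came nearest, with 135, 124, 122, 109.9 and 102 RPKM in male libraries (KO 12, WT 4, WT 7, KO 9, Het 8), against 115, 106.6, 100.4, 98.0 and 91.9 RPKM in female libraries (Het 11, WT 1, Het 5, KO 6, WT 10). The sexes overlapped between 102 and 115 RPKM, and the log2 difference was 0.2 (SE 0.1, limma adjusted p = 0.921). Cass4 and Rin3 also had fitted differences of 0.2, and Sorl1 one of -0.15. None of these passed the test.

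Within the 2 depth classes the sign of the plain log2 difference, without a sex term, was the same in 3 of 9 members for KO against WT. It was the same in 3 of 9 for Het against WT and in 1 of 9 for KO against Het. Fermt2, among these in KO against WT, was at 0.12 in the deeper and 0.08 in the shallower class, against -0.091 over all 10 libraries. Cd2ap and Ptk2b kept the sign they had over all 10. In the deeper class the KO libraries are male and the Het and WT libraries female, so genotype and sex cannot be told apart there. Each class holds only 1 library of some genotypes, so no test was made within them. Every member was read well above the counting floor at these depths. The lowest count in any library was 434 reads, for Fermt2, and the highest 64631 reads, for Picalm.

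Most members belong to small families, and the levels showed which relative prevailed in these cells. Bin2, the BAR-domain gene of blood cells, was above Bin1 in 10 of 10 libraries, at a mean of 439 RPKM. The ratio of Bin1 to Bin2 was 0.323 ± 0.0403 in KO (SD, n = 3), 0.316 ± 0.0196 in Het (SD, n = 3) and 0.292 ± 0.0603 in WT libraries (SD, n = 4). Fermt3, the kindlin of blood cells, was above Fermt2 in every library as well, with Fermt2 at 0.152 ± 0.0766 of its level in KO, 0.178 ± 0.0442 in Het and 0.172 ± 0.0398 in WT libraries. Sortilin (Sort1) stood above Sorl1 in all 10, with Sorl1 at 0.146 ± 0.00692 of its level in KO, 0.129 ± 0.0191 in Het and 0.138 ± 0.0192 in WT libraries. Rin2 was above Rin3 in all 10. It had 58.4, 102 and 97.4 RPKM in KO libraries, 48.0, 93.5 and 83.6 RPKM in Het libraries, and 88.8, 116, 96.7 and 96.5 RPKM in WT libraries. KO library 6 and Het library 5, both female, held its lowest values. Its log2 difference was 0.46 in male against female libraries (limma adjusted p = 0.919) and -0.32 in KO against WT (limma adjusted p = 0.977).

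The other members led their families. Picalm made up 99.8 ± 0.0558% of the summed RPKM of itself and Snap91, the mainly neuronal form, in KO, 99.7 ± 0.0932% in Het and 99.8 ± 0.0387% in WT libraries. Snap91 itself was low, at 0.746 ± 0.158 RPKM in KO, 1.10 ± 0.281 RPKM in Het and 0.576 ± 0.155 RPKM in WT libraries, and its Het against WT difference of 0.55 did not pass (limma adjusted p = 1.0). Ptk2b was 8.58 ± 2.73 times focal adhesion kinase Ptk2 in KO, 10.5 ± 4.71 times in Het and 8.11 ± 1.89 times in WT libraries. Abi3 was 2.53 ± 0.508 times Abi1 in KO, 2.33 ± 0.255 times in Het and 2.40 ± 0.359 times in WT libraries. Cass4 was 2.78 ± 0.929 times Nedd9 in KO, 2.73 ± 0.301 times in Het and 3.03 ± 0.78 times in WT libraries. Cd2ap was closest to its relative, at 1.35 ± 0.0586 times Sh3kbp1 in KO, 1.23 ± 0.17 times in Het and 1.27 ± 0.116 times in WT libraries, and it was above Sh3kbp1 in 10 of 10. Of the 20 relatives, 14 passed the filter on low values, and 0 of 14 were called in any of the 4 comparisons. The 6 below it were Amph, Sorcs1, Sorcs2, Sorcs3, Efs and Fermt1.

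**Figure D4:**
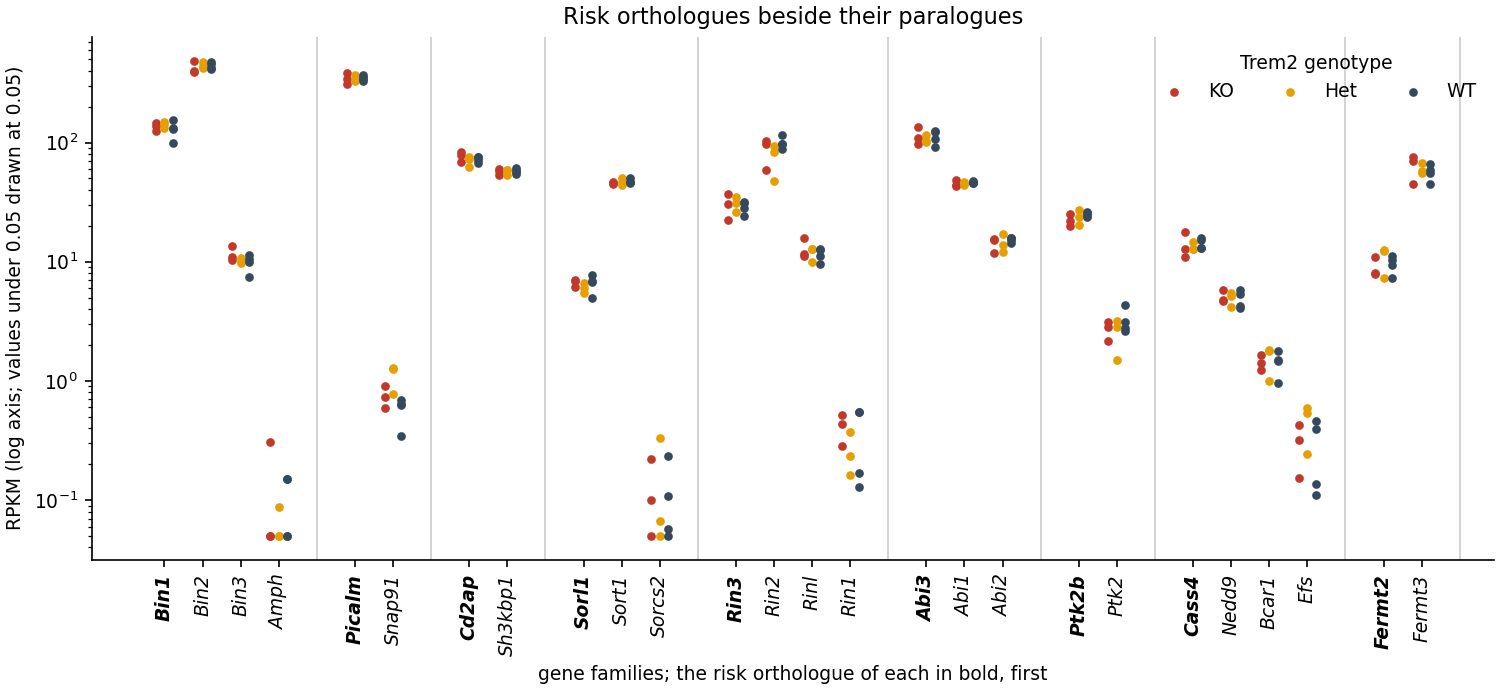
RPKM on a log axis of each of the 9 genes and of family relatives in the KO, Het and WT libraries, left to right within each gene. Bin2, Sort1, Rin2 and Fermt3 lie above their relatives Bin1, Sorl1, Rin3 and Fermt2, and the other 5 genes lie above all their relatives.

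The machinery in which the members act was described from 4 lists. Of the clathrin-mediated endocytosis list, 32 of 34 genes were tested and 0 were called in any comparison. In KO against WT 20 were above 0 and 12 below, where 57.2% of all genes were above 0. The median was 0.03, the same as for all genes. The heat-shock cognate Hspa8, which removes clathrin coats, averaged 223 ± 22.7 RPKM in KO and 201 ± 24.6 RPKM in WT libraries, and the heavy chain Cltc 163.1 ± 19.5 RPKM in KO and 162.9 ± 8.35 RPKM in WT libraries. The light chain Clta averaged 136 ± 2.89 RPKM in KO and 119.8 ± 20.6 RPKM in WT libraries. The smallest p of the list in KO against WT was that of the phosphoinositide phosphatase Synj2, at 3.38 ± 0.0798 RPKM in KO and 4.85 ± 0.851 RPKM in WT libraries (log2 difference -0.45, limma adjusted p = 0.969).

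Of the early endosome and retromer list, all 30 genes were tested and 0 were called in any comparison, with 17 above 0 and 13 below in KO against WT and a median of 0.015. Its most abundant gene was the sorting nexin Snx5, at 321 ± 40.1 RPKM in KO and 343 ± 27.1 RPKM in WT libraries. Rab5c, a target GTPase of the RIN family, averaged 83.2 ± 6.21 RPKM in KO and 80.2 ± 7.78 RPKM in WT libraries, and the recycling gene Ehd4 78.3 ± 0.84 RPKM in KO and 72.2 ± 7.39 RPKM in WT libraries. The retromer subunit Vps29 had the smallest p, at 23.4 ± 1.26 RPKM in KO and 20.2 ± 0.69 RPKM in WT libraries (limma adjusted p = 0.977).

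Of the integrin adhesion list, all 34 genes were tested and 0 were called, with 20 above 0 and 14 below in KO against WT and a median of 0.05. Itgam, which encodes the CD11b used to collect the cells, was at 823 ± 56.8 RPKM in KO and 865 ± 156 RPKM in WT libraries. The kinase Lyn stood at 224 ± 19.2 RPKM in KO and 228 ± 12.7 RPKM in WT libraries, and the talin-recruiting adaptor Apbb1ip at 220.1 ± 24.8 RPKM in KO and 217 ± 12.5 RPKM in WT libraries. Parvb, the beta-parvin of the integrin-linked kinase complex, had the smallest p, at 10.5 ± 1.74 RPKM in KO, 10.00 ± 2.02 RPKM in Het and 13.3 ± 1.45 RPKM in WT libraries. Its log2 difference was -0.38 in KO against WT (limma adjusted p = 0.942) and -0.36 in Het against WT (limma adjusted p = 1.0).

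Of the WAVE complex and actin nucleation list, 28 of 29 genes were tested and 0 were called, with 21 above 0 and 7 below in KO against WT and a median of 0.072. Over all genes 57.2% were above 0 in that comparison. Rac1, the GTPase that switches the WAVE complex on, averaged 432 ± 42.1 RPKM in KO and 462 ± 52.5 RPKM in WT libraries. The Arp2/3 subunit Arpc2 averaged 353 ± 29.0 RPKM in KO and 345 ± 7.94 RPKM in WT libraries, and the WAVE subunit Nckap1l of blood cells 218 ± 13.4 RPKM in KO and 222 ± 10.9 RPKM in WT libraries. Pstpip1 had the smallest p, at 2.30 ± 0.679 RPKM in KO and 1.42 ± 0.591 RPKM in WT libraries (limma adjusted p = 0.979).

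**Figure D5:**
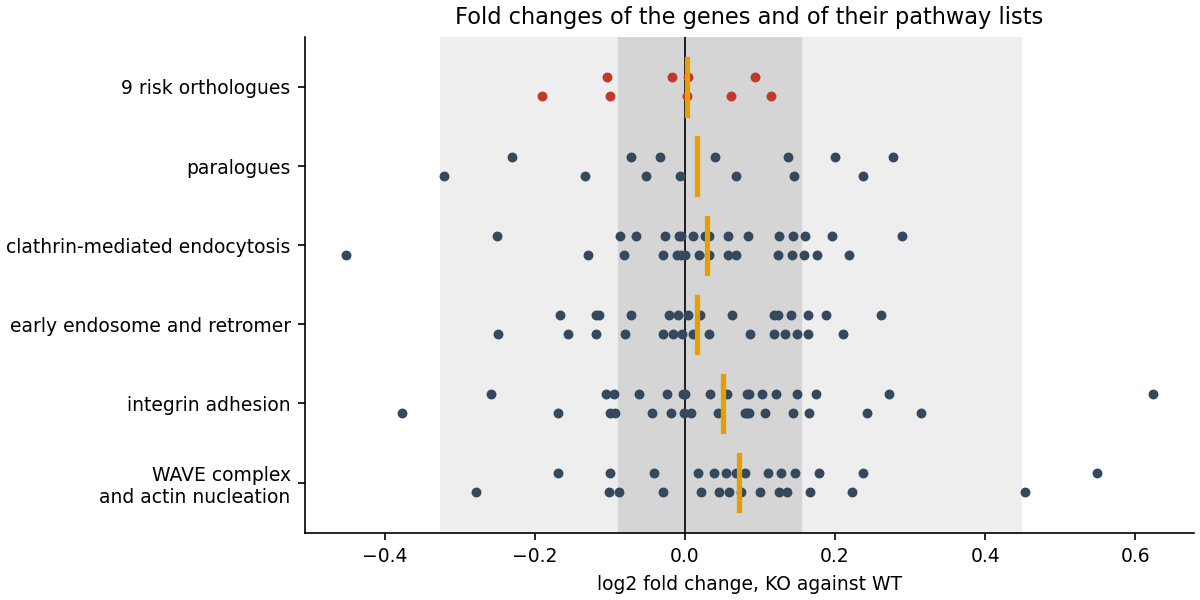
Fitted KO against WT difference on the log2(RPKM + 0.5) scale of each tested gene of the 9 members, their relatives and the 4 lists (points), with the median of each list. List medians lie between 0.002 and 0.072. Over all genes the median was 0.03. The 25th to 75th percentiles of all genes ran from -0.088 to 0.155, and the 5th to 95th from -0.325 to 0.448.

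No pair of members passed a test of correlation across libraries. Of the 36 pairs, 20 had a positive and 16 a negative Pearson correlation of log2 values over the 10 libraries. An unadjusted permutation p under 0.05 was found for 4 pairs (3 of them negative), and 0 stayed under 0.05 after Benjamini-Hochberg adjustment. The share among pairs of all genes was not computed, so whether 4 of 36 is usual in these libraries is not known. Among the member pairs, the largest in size was Cd2ap with Ptk2b (r = -0.77, permutation p = 0.00912, adjusted p = 0.328). Spearman's rho was -0.71 (permutation p = 0.0272, adjusted p = 0.383), and r was -0.5 without the 2 libraries farthest from the Cd2ap median and -0.85 within the 6 shallower libraries. The 4 deeper libraries were too few for a value of their own. The genes whose pattern over the 10 libraries was nearest to a member, by Pearson r among 7087 genes of at least 5 RPKM, were Tyk2 for Rin3 (r = 0.97), Tnfrsf23 for Abi3 (r = 0.96), Nrbp1 for Bin1 (r = 0.96), Tmem132a for Ptk2b (r = 0.94), Coasy for Cass4 (r = 0.93), Tm9sf2 and Itch for Cd2ap (r = 0.93 each), Taf1b for Sorl1 (r = 0.93), Fcgr3 for Picalm (r = 0.91) and Nrbp2 for Fermt2 (r = 0.87). These are the highest of many values over libraries that share depth and sex and are given as a description.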

How the data were processed

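RNA-seq of CD11b-isolated microglia was deposited as RPKM, 1 file for each of 10 libraries, computed by the authors. Per the labels' protocols, libraries were made with the Ovation RNA-seq system v2, an amplifying kit, and sequenced on an Illumina HiSeq4000. The submitters' processing notes name STAR, HTSeq, edgeR, limma and mm10, without their order. No source used here states the strand setting of the counting, so reads of overlapping antisense genes cannot be told apart.

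Values were tested with limma 3.58.1 (R 4.3.3, limma-trend) as log2(RPKM + 0.5), which understates changes of low genes, over the 13621 genes that reached 0.5 RPKM in 3 or more libraries, with genotype and sex as terms. All tests were two-sided, p-values were Benjamini-Hochberg adjusted over all genes tested, and intervals are at 95%. The script was tested on simulated data. The RPKM were whole multiples of 1 read, within 0.0005 reads or a relative 3e-08, for 100.0% of 19983 genes, which gave 17.61 to 45.03 M reads (M, megareads) per library; they served for limma-voom, not for the main test. Another 27 names turned into dates were not used. Member correlations used 100000 permutations. Coordinates and IDs are from GENCODE release M21 (GRCm38).

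Members, lists and tests were chosen with earlier results of these data known. The result of 1 marker gene is not reported here, and it was left out of its marker sum. The text names all 9 members, their relatives, the 3 most abundant genes and the gene of smallest KO against WT p of each list, and the genes most like each member. Alternatives covered the pseudocount, filter, scaling, sex term, model, depth class and leaving out each library.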

Additional observations from a re-analysis of the deposited data

Results flagged for a closer look

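A sample was looked at again where it stood apart by Dixon's test from the rest of the WT, the male or the female libraries, in 105 such groups of members, relatives and marker sums. The KO and Het groups of 3 libraries were not tested. Chance flags about 1 in 20 groups, and 6 were flagged, none of the 6 a level of the 9 genes.

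Ptk2, the relative of Ptk2b, was at 1.48 RPKM in Het library 5, low among the 5 female libraries. The neutrophil marker sum was 2291 RPKM and the monocyte marker sum 147.0 RPKM in KO library 6, both high among the female libraries. The monocyte marker sum was 55.7 RPKM in WT library 7, high among the 4 WT libraries. The oligodendrocyte marker sum was 36.0 RPKM in Het library 8, high among the male libraries, with Mog, Mobp, Cldn11, Ermn and Opalin under 0.5 RPKM everywhere. The choroid plexus marker sum was 1406 RPKM in Het library 11, high among the female libraries. This sum was higher still in the male Het library 8, at 1773 RPKM, which was not flagged among the male libraries. In the remaining libraries it was 647 to 1092 RPKM. Their part in the member values was not tested.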

How the results depend on the processing

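Under all 18 settings run, 0 of 9 members were called in every comparison (smallest adjusted p of a member 0.711). Of 639 member values, 585 kept their sign and 54 reversed it, in 20 of 36 member comparisons, all with a size of 0.122 or less. The cause was not tested. With depth class as a term, chosen after seeing the data, KO against WT was 0.0054 for Picalm, -0.085 for Rin3 and -0.017 for Abi3, Het against WT 0.00048 for Picalm and KO against Het 0.0049 for Picalm. With median-ratio scaling KO against WT was -0.031 for Rin3 and -0.029 for Abi3, KO against Het -0.0028 for Abi3, and male against female 0.0033 for Picalm. With limma-voom these were -0.010, -0.019, -0.0059 and 0.0021. Without the sex term Het against WT was 0.0018 for Picalm and KO against Het 0.016 for Cass4.

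Leaving out each library gave these ranges where a sign turned. KO against WT ran from -0.030 to 0.24 for Bin1, -0.094 to 0.051 for Picalm, -0.061 to 0.12 for Sorl1, -0.15 to 0.21 for Rin3, -0.089 to 0.064 for Abi3 and -0.26 to 0.034 for Cass4. Het against WT ran from -0.037 to 0.041 for Picalm, -0.13 to 0.025 for Cd2ap, -0.12 to 0.12 for Abi3, -0.15 to 0.022 for Ptk2b and -0.12 to 0.033 for Cass4. KO against Het ran from -0.080 to 0.11 for Bin1, -0.085 to 0.049 for Picalm, -0.24 to 0.11 for Rin3, -0.14 to 0.12 for Abi3 and -0.20 to 0.099 for Cass4. Male against female ran from -0.14 to 0.058 for Bin1, -0.066 to 0.0015 for Picalm, -0.11 to 0.0012 for Cd2ap and -0.035 to 0.28 for Fermt2.

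No paired analysis was made, because the labels do not say which libraries, if any, belong together. The replicate numbers are running library numbers and do not show it. The planned quasi-likelihood count test was not run. The groups are small, and the bounds of the member intervals reached -42.0%, for Fermt2 in KO against Het, and 55.3%, for Fermt2 in Het against WT. Over all genes, KO against WT gave 1 call in the test as reported, 2 with limma-voom, 2 with depth class as a term and 3 without KO library 6, and Het against WT gave 0 calls and 1 with limma-voom.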
